A study of Arabidopsis thaliana with 4 samples.

Results

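Callus regions of acetylated histone H3 (H3ac) were set against callus regions of histone H3 trimethylated at lysine 4 (H3K4me3) in Arabidopsis thaliana. A region was counted when it lay on a nuclear chromosome and the callus library of that mark had been called in it, which gave 18542 H3ac and 17601 H3K4me3 regions, or 36143 of the 38668 nuclear regions in the series. Both marks were profiled by chromatin immunoprecipitation followed by sequencing, in which an antibody pulls down the DNA wrapped around histones that carry the mark. All samples were ecotype Col-0 with no further treatment in the labels. Callus came from leaf explants of seedlings aged 2 weeks that had spent 15 days on CIM, the medium on which callus was formed, and the other tissue was mature leaf, which the growth protocol calls the parental leaves. The effects of the tissue and of the days on CIM therefore cannot be told apart. The series holds 4 libraries, 1 for each mark and tissue, so no value below has a replicate, no p-value is given, and each difference is one between single libraries. In such bulk samples a mark carried by fewer cells and a weaker mark in every cell cannot be told apart.

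Acetylation of histone H3 loosens the hold of nucleosomes on DNA and is read by bromodomain proteins. H3K4me3 is laid down near the starts of genes by methyltransferases of the Trithorax type. Both are textbook marks of genes in use, and in most tissues they sit together at the same promoters. Callus on such a medium is known to take a path that resembles the founding of a lateral root, with root stem cell genes such as PLETHORA switched on in former leaf cells.

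The region score deposited by the authors has no stated unit and was used only to rank regions within a mark, as a percentile of the callus regions. Scores of callus-alone regions lay on steps of 1.0225 for H3ac and 0.5031 for H3K4me3, and the weakest callus regions stood at 28 and 47 steps. If both lists were scaled to the same total, the callus H3ac library had 0.492 times the depth of the callus H3K4me3 library. The total depth is unknown, and the part of this difference in the counts of regions with a single mark was not tested. Of the 9 callus marker genes, mostly root stem cell and lateral root founder genes, 7 carried both marks in callus and 1 did in leaf. The top callus H3ac regions of PLT1, PLT2 and WOX11 among them were weak, at the 3.2, 6.8 and 2.2 percentiles. Of the 8 stomatal markers, 3 carried both marks in callus and 4 in leaf, and SPCH and FAMA carried neither mark in either tissue. Of the 6 trichome markers, 4 carried both marks in callus and 4 in leaf. Of the 7 vascular markers found, 5 carried both marks in callus and 2 in leaf. Over all genes, 65.1% carried both marks in callus and 64.1% in leaf, so the trichome and vascular values in callus were small counts near that level. All these counts take in 500 bp on either side of the gene body. Over the body alone, WOX5, MUTE and VND7 carried neither mark in callus and LBD18 carried H3K4me3 only. The part of these other cell types in the counts below was not tested.

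The marks lay largely on the same DNA in callus. Of the H3ac regions, 16013 (86.4%) overlapped an H3K4me3 region by at least 1 bp, and 2529 (13.6%) did not. Of the H3K4me3 regions, 15548 (88.3%) overlapped an H3ac region and 2053 (11.7%) did not. H3ac regions were the shorter ones, with a median of 782 bp against 1035 bp for H3K4me3. They nested inside H3K4me3 regions: 11271 of the overlapped H3ac regions (70.4%) lay wholly within H3K4me3, whereas 1251 of the overlapped H3K4me3 regions (8.05%) lay wholly within H3ac. H3ac covered 15.8 Mb and H3K4me3 covered 19.7 Mb, and the 13.8 Mb they shared made up 87.4% of the H3ac length and 70.2% of the H3K4me3 length.

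Where 1 H3ac region met 1 H3K4me3 region and no other, as in 14816 pairs, the H3K4me3 region was the longer member in 12355 (83.4%). The centres of such a pair lay a median of 69 bp apart (quartiles 32 and 128 bp), and in 224 pairs (1.51%) they were more than 500 bp apart. Across these pairs the scores of the marks rose together with a Spearman rho of 0.64 and the lengths with 0.65. The pairs share a tissue, local sequence and gene density, so these are descriptions of the lists. The ends of a region called in both tissues are those of the merged call and may have been widened by leaf.

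The strongest regions of either mark were nearly always accompanied by the other. In the top score bin, with the regions of a mark ranked by score and cut into 10 equal bins, 99.5% of H3ac regions had H3K4me3 and 99.9% of H3K4me3 regions had H3ac. In the lowest bin the shares were 36.7% for H3ac and 38.4% for H3K4me3. By bin 5 they had reached 96.1% and 98.3%, as the plot of overlap by score shows.

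**Figure D1:**
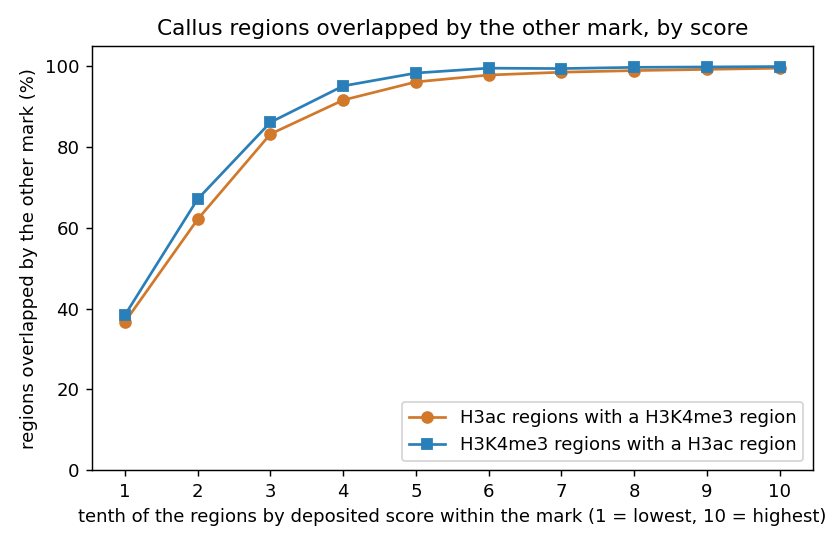
Share of callus regions overlapped by at least 1 bp of the other mark (y axis, percent) in each of 10 equal bins of the deposited score within the mark (x axis, lowest to highest). Orange circles are H3ac regions and blue squares are H3K4me3 regions. The shares climb from 36.7% and 38.4% in the lowest bin to 99.5% and 99.9% in the highest.

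Regions without the other mark were short. Lone H3ac regions had a median of 297 bp, against 825 bp for H3ac regions with H3K4me3, and 602 of them (23.8%) had the smallest deposited length of 150 bp. Lone H3K4me3 regions had a median of 571 bp, against 1069 bp for those with H3ac. Lone regions were more frequent among regions called in callus alone: 1583 of 2855 such H3ac regions (55.4%) lacked H3K4me3, against 946 of 15687 (6.03%) of those called in callus and leaf. For H3K4me3 the counts were 763 of 1355 (56.3%) in callus alone and 1290 of 16246 (7.94%) in callus and leaf. Put as regions that met the other mark of callus, the callus-alone shares were 44.6% for H3ac and 43.7% for H3K4me3. Regions called in leaf alone met the other mark of leaf in somewhat higher shares, with 826 of 1643 (50.3%) for H3ac and 450 of 882 (51.0%) for H3K4me3. The callus-alone regions also had low scores, with a median percentile of 6.8 for lone H3ac and 4.0 for lone H3K4me3.

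**Figure D2:**
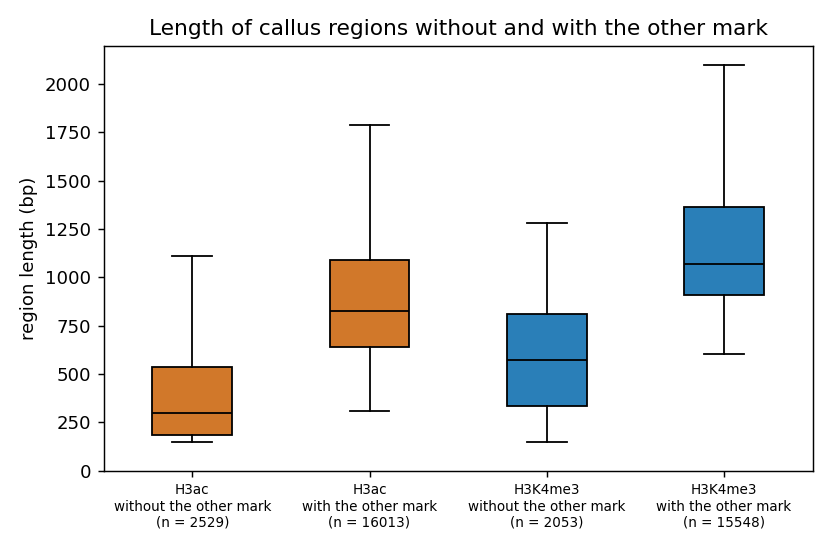
Length in bp (y axis) of callus H3ac regions (orange) and H3K4me3 regions (blue) without and with an overlapping region of the other mark. Boxes span the quartiles with the median as a line, whiskers run from the 5th to the 95th percentile, and the medians are 297 and 825 bp for H3ac and 571 and 1069 bp for H3K4me3.

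The marks parted ways in where their lone regions lay. Of lone H3ac regions, 1027 (40.6%) touched the body of a protein-coding gene, 535 (21.2%) lay within 500 bp of such a gene, 185 (7.32%) were at other genes only, and 782 (30.9%) were farther from any gene. Of H3ac regions with H3K4me3, 39 (0.244%) were that far from any gene. Of lone H3K4me3 regions, 1894 (92.3%) touched a protein-coding gene body and 14 (0.682%) were far from any gene. H3ac away from genes was thus mostly H3ac without H3K4me3, with 782 regions lone and 39 accompanied.

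The highest-scoring lone H3ac region ran from chr3:8306270-8308937 (TAIR10), outside but within 500 bp of MYB15, a transcription factor gene of defence and cold responses, and stood at the 98.1 percentile of H3ac scores. A lone H3ac region at chr1:9649424-9651232 lay within 500 bp of STZ, which encodes a zinc finger repressor of salt and drought responses, at the 93.9 percentile. Another of 1960 bp at chr4:5736838-5738798 lay farther than 500 bp from any annotated gene, at the 93.5 percentile. These 3 regions were called in both tissues. Another of the 5 highest-scoring lone H3ac regions lay over BGLU45, BGLU46 and the long non-coding RNA genes AT1G08433 and AT1G08437. It was called in callus alone. The remaining one, at the 97.8 percentile, overlapped a different long non-coding RNA gene and was called in both tissues. The 5 highest-scoring lone H3K4me3 regions all touched gene bodies, and 3 of them were called in callus alone.

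Genes were then sorted by the marks found over the body with 500 bp on either side. Of 27444 nuclear protein-coding genes, 17872 (65.1%) had both marks in callus, 490 (1.79%) had H3ac only, 1671 (6.09%) had H3K4me3 only and 7411 (27.0%) had neither. Both marks were present at 97.3% of the genes with any H3ac and at 91.4% of the genes with any H3K4me3. The regions overlapped each other at 17803 (99.6%) of the genes with both marks. They did not at 69 genes, 32 of them with each mark over the body. One such gene was ZYP1b, which encodes a protein of the synaptonemal complex of meiosis, with top regions of the 2 marks 4933 bp apart. CENP-C, a centromere protein gene, had them 2460 bp apart.

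Genes with both marks were the longest and most closely spaced, with a median length of 2393 bp and a median gap to the nearest gene of 74 bp. Genes with H3ac only had medians of 1584 bp and 404 bp, those with H3K4me3 only 2004 bp and 162 bp, and those with neither 1324 bp and 464 bp. Any call over the body or its 500 bp flanks counts, so long genes and genes with close neighbours can gain calls by construction. Among genes with both marks, H3ac lay in a flank only at 1535 genes and H3K4me3 at 1076. The part of this in the lengths and gaps was not tested. In the classes with a single mark that mark was weak, at a median percentile of 18.8 for H3ac only and 14 for H3K4me3 only, against 64.1 for H3ac and 63.3 for H3K4me3 in genes with both. The missing mark was a median of 1905 bp away for H3ac-only genes and 1743 bp for H3K4me3-only genes. It lay 501 to 1000 bp away at 126 of the H3ac-only genes (25.7%) and at 494 of the H3K4me3-only genes (29.6%). Among 3480 long non-coding RNA genes 206 (5.92%) carried H3ac only and 188 (5.4%) H3K4me3 only, so the single-mark classes were of like size. Of 3917 pseudogenes, 3648 (93.1%) carried neither mark.

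The 8 genes with the highest combined ranks and both marks included the DELLA repressors of gibberellin signalling GAI and RGA1 and the brassinosteroid receptor BRI1. The others were the clock gene TIC, the general transcription factor gene TAF11, SLP2, HCF243 and AT5G01830. The last, 2865 bp long, has the symbol SAUR21 in the gene table and was put on the auxin list by that symbol alone. Whether it is an auxin gene was not checked. All 8 carried both marks in leaf too. RGA1 stood at the 99.7 percentile for H3K4me3 and higher still for H3ac, over H3ac and H3K4me3 regions of 2682 and 2205 bp.

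Most genes kept their class between tissues: 24920 (90.8%) were in the same class in callus and leaf and 2524 were not. The class shares in leaf were 64.1% for both, 1.35% for H3ac only, 6.31% for H3K4me3 only and 28.2% for neither. Of the 1671 genes with H3K4me3 only in callus, 939 (56.2%) were the same in leaf, 312 (18.7%) had both marks in leaf and 406 (24.3%) had neither. Of the 490 with H3ac only in callus, 153 (31.2%) were the same in leaf, 138 (28.2%) had both and 185 (37.8%) had neither. The step of the values gave a depth ratio of 1.369 between the callus and the leaf library of H3ac, and its part in these counts was not tested.

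**Figure D3:**
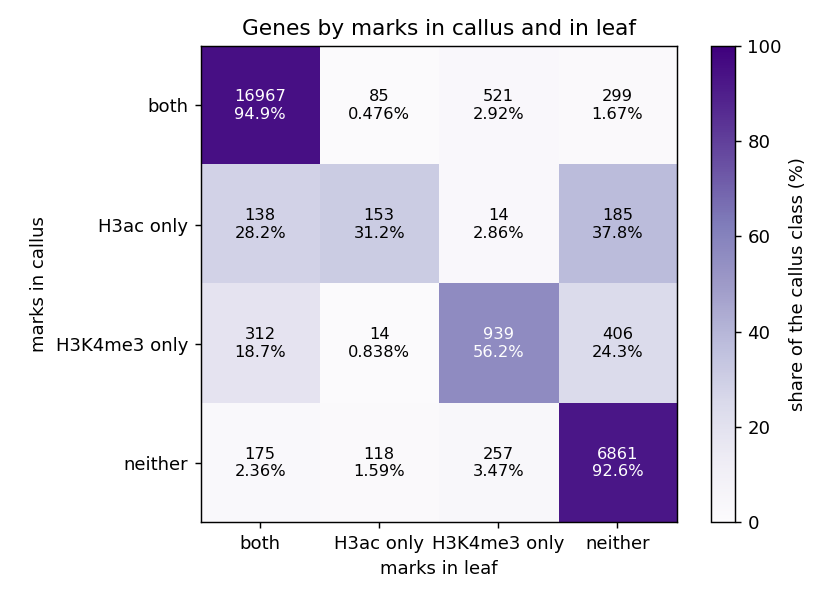
Number of nuclear protein-coding genes, and share of the callus class in percent (colour scale), for each class of marks in callus (rows) and in leaf (columns). The diagonal holds 24920 of 27444 genes, and the rows of the single-mark classes are spread over the other columns.

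The authors' deposited table lists regions whose callus tags were 2-fold the leaf tags or more within 147 bp at the region centre. Listed regions also had to pass the authors' Poisson p cutoff of 0.01, so a region with few tags may be 2-fold higher and unlisted. Regions higher in leaf are not listed. A gene was counted through its callus regions and given the fold of its top-scoring listed region. Over all genes, 7.27% of those with H3ac and 8.25% of those with H3K4me3 were listed for that mark in the authors' deposited table. Among genes with both marks the shares in the authors' deposited table were 6.73% for H3ac and 7.04% for H3K4me3. Of the H3ac-only genes, 131 (26.7%) were listed in the authors' deposited table, with a median of 3.12-fold. Of the H3K4me3-only genes, 354 (21.2%) were listed in the authors' deposited table, with a median of 3.24-fold.

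Of the 10 H3K4me3-only genes with the highest scores, PIL1 alone had a region called in callus alone, and the scores of the others hold leaf too. GLDP1, a glycine decarboxylase of photorespiration, had the highest H3K4me3 score of this class, at the 95.8 percentile, over 3208 bp called in both tissues. H3ac regions of 197 and 392 bp over its body were called in leaf alone. GLU1, a chloroplast glutamate synthase gene of photorespiration, stood at the 70.3 percentile and GUN4, a gene of chlorophyll synthesis, at the 66.5 percentile, and both also carried both marks in leaf. ATK1, a mitotic kinesin gene, stood at the 86.5 percentile, but its region also overlapped the photosystem gene PSBQA. SCL28 and Cpn60alpha2 shared a single region. FER1, an iron storage protein gene, ROH1 and IAA32 carried H3K4me3 only in both tissues.

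Other genes of the class had H3K4me3 calls in callus and none in leaf. PIL1, a light-regulated transcription factor gene, carried neither mark in leaf, and its callus H3K4me3 region of 2236 bp stood at the 92.4 percentile. The authors' deposited table gave it 268.8 scaled callus tags and 22 leaf tags, 12.22-fold (95% interval 7.91 to 19.8). Intervals are exact, come from both tag numbers and cover counting error only, and since regions were listed for a high fold the folds may lie too high. The 6 H3K4me3-only genes with the largest folds, all without either mark in leaf, were Prx37, RGF1, FEZ, RGF4, BGLU22 and CYP705A28. Prx37, a peroxidase gene, had 95.5 scaled callus tags and 1 leaf tag in the authors' deposited table, 95.5-fold (16.7 to 3810). FEZ, which promotes stem cell divisions in the root cap, had 84.7 scaled callus tags and 2 leaf tags in the authors' deposited table, 42.34-fold (11.4 to 355). Their regions had low scores nonetheless, at the 15.6 percentile for Prx37 and 7.2 for FEZ.

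BGLU45 and BGLU46, neighbouring beta-glucosidase genes of the lignin precursor pathway, led the H3ac-only genes by score. A single callus-alone H3ac region of 2834 bp touched both, at the 97.9 percentile, and also overlapped the long non-coding RNA genes AT1G08433 and AT1G08437. The authors' deposited table gave it 47.8 scaled callus tags and 11 leaf tags, 4.35-fold (2.28 to 9.13). BGLU45 carried 3 more H3ac regions over its body and no H3K4me3, as the map of regions shows. APL1, a large subunit gene of the starch enzyme ADP-glucose pyrophosphorylase, followed at the 97.2 percentile. An H3K4me3 region over APL1 was called in leaf alone. Another, of 954 bp and called in both tissues, lay past the end of the gene but inside the APL1 H3ac region. APL1 is therefore H3ac only by its gene window, while its H3ac region did overlap H3K4me3 in callus.

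Several further H3ac-only genes had both marks in leaf. They were WRR4, an immune receptor gene, CRK14, a cysteine-rich receptor kinase gene, XTH18, a cell wall xyloglucan enzyme gene, DMR6, a gene that dampens immunity, and CCR2 (AT1G80820), a cinnamoyl-CoA reductase gene of the phenolic pathway. XTH18 stood at the 81.7 percentile for H3ac, and the H3K4me3 region over it was called in leaf alone. PLS, a gene for a short root peptide, and SAP10 carried H3ac only in both tissues. Largest by fold was DXPS1, of the DXP synthase family that opens plastid isoprenoid synthesis. DXPS1 had 31.4 scaled callus tags and 1 leaf tag in the authors' deposited table, 31.41-fold (5.34 to 1270). CYP81F4 came next, at 9.06-fold (3.68 to 28.9), and the authors' deposited table gave LAC2 7.62-fold, BNQ3 7.47-fold, SDR2 7.17-fold and ASL5 7.16-fold. CYP81F4, a gene of indole glucosinolate synthesis, had its H3ac region outside the gene body.

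**Figure D4:**
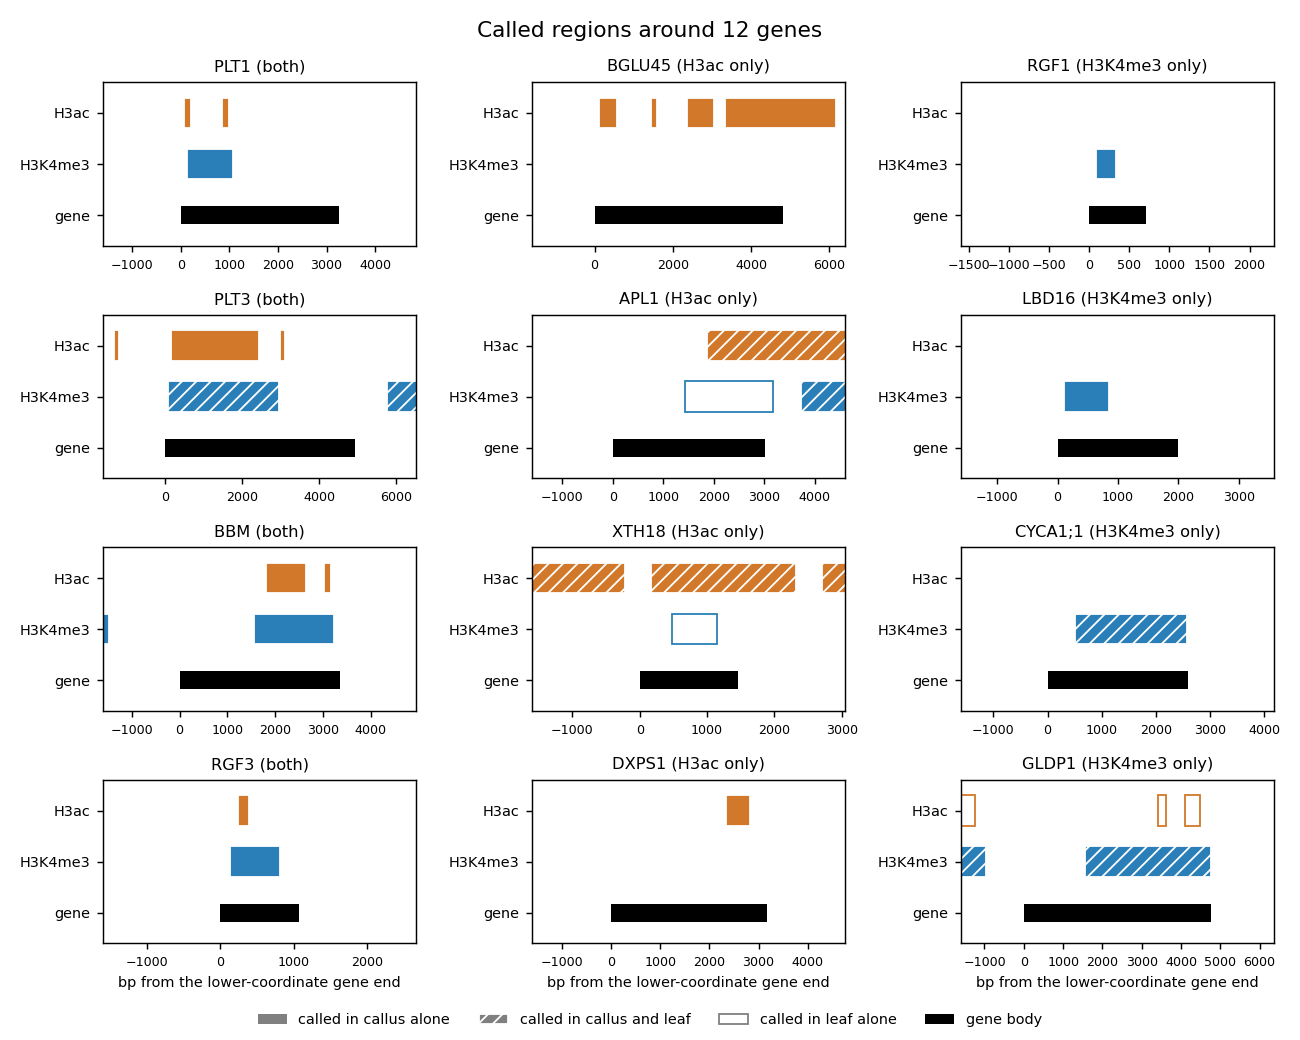
Called H3ac regions (orange) and H3K4me3 regions (blue) around 12 genes (black bars), in bp from the lower-coordinate end of each gene, with the class of marks in callus in each title. Plain fill marks regions called in callus alone, hatched fill regions called in callus and leaf, and open bars regions called in leaf alone. The left column holds genes with both marks, the middle column genes with H3ac only, such as BGLU45 with 4 H3ac regions, and the right column genes with H3K4me3 only.

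With all called regions, the cell cycle list had the highest share of genes with H3K4me3 only among the gene lists. Of 76, 45 carried both marks in callus, 0 carried H3ac only, 29 (38.2%) carried H3K4me3 only and 2 (CYCA2;1 and CYCA3;3) carried neither, against 6.09% of all genes with H3K4me3 only. With only regions at or above the median score, 12 of the 76 (15.8%) carried H3K4me3 only, against 8.87% of all genes, and the photosynthesis list stood higher, at 24 of 57 (42.1%). In all 29 the H3K4me3 region touched the gene body. The pattern was present in leaf as well, where 25 carried H3K4me3 only. Cell cycle genes with weak H3K4me3 accounted for most of it: 21 of the 22 with a top region below percentile 20 of H3K4me3 scores lacked H3ac (95.5%), against 44.2% of all genes in that range. Between percentiles 20 and 40, 5 of 18 did (27.8%), against 9.86% of all genes.

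Some roles within the list were uniform and others were split. MCM2, MCM3, MCM4, MCM5 and MCM6, which encode subunits of the helicase that opens replication origins, all carried H3K4me3 only in callus, and 4 of these 5 did in leaf. MCM7 was not on the list. MCM10 carried H3K4me3 only in both tissues, and MCM8 and MCM9 carried both marks in both tissues. Of the 7 genes of the origin recognition complex, 4 (ORC1A, ORC2, ORC3 and ORC6) carried H3K4me3 only in callus and 3 carried both marks. The loader gene CDC6 carried H3K4me3 only in both tissues. The loader genes CDT1A and CDT1B carried both marks in callus and H3K4me3 only in leaf. PCNA1 and PCNA2, the sliding clamp genes, carried both marks in both tissues. All 4 CDKB genes, which encode the plant-specific mitotic kinases, carried H3K4me3 only in callus, and in leaf 2 did and 2 carried neither mark. The 5 other kinase genes on the list, of the CDKC, CDKD and CDKE types, carried both marks in both tissues. Of 10 A-type cyclins, 7 carried both marks in callus, 1 (CYCA1;1) H3K4me3 only and 2 neither. RBR1, the retinoblastoma-related gene, carried both marks and WEE1 H3K4me3 only. B-type cyclins, which act at mitosis, were split 5 to 5 between both marks and H3K4me3 only, with CYCB1;1 carrying H3K4me3 only. At CYCB2;1, CYCB2;4, CYCB1;3 and CYC1BAT, counted with both marks, H3ac lay in a flank only and the body carried H3K4me3 only. Of 10 D-type cyclins, which answer growth signals, 7 carried both marks and 3 (CYCD4;1, CYCD4;2 and CYCD6;1) H3K4me3 only. CYCD7;1 was counted with both marks only through a flank. DEL1, DEL2 and DEL3, atypical E2F repressors, carried H3K4me3 only, while the 5 E2F and DP genes carried both. The cell cycle inhibitor genes carried both marks in 6 of 7, with ICK6 the exception.

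Of these 29 H3K4me3-only cell cycle genes, 11 were listed as higher for H3K4me3 in the authors' deposited table, from 2.02-fold to 4.0-fold. The share listed over all genes with H3K4me3 was 8.25% and over all H3K4me3-only genes 21.2% in the authors' deposited table. The highest in the authors' deposited table were CDKB1;1 with 4.0-fold and CYCA1;1 with 3.75-fold (2.56 to 5.63), from 129.5 scaled callus tags and 34.5 leaf tags for CYCA1;1.

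Root stem cell factors carried both marks in a share close to that of all genes. Of 25 callus and root stem cell factors, 15 carried both marks in callus, 0 H3ac only, 3 (12%) H3K4me3 only and 7 (28%) neither, against 65.1%, 1.79%, 6.09% and 27.0% of all genes. In leaf 8 carried both marks, 2 H3K4me3 only and 15 neither. PLT1, PLT2, PLT5, BBM and WOX11, transcription factor genes of root and embryo stem cells, carried both marks in callus and neither in leaf. The lengths of the regions varied between them. The PLT1 locus had 2 H3ac regions of 150 bp and an H3K4me3 region of 948 bp. At PLT2 the top H3ac region was 188 bp long and the H3K4me3 region 1881 bp. At WOX11 the H3ac region was 150 bp and the H3K4me3 region 1355 bp. BBM had an H3ac region of 822 bp inside an H3K4me3 region of 1679 bp. PLT5 had an H3ac region of 1051 bp and an H3K4me3 region of 1343 bp.

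PLT3, which carried H3K4me3 only in leaf, had the highest H3ac score of the PLT genes whose H3ac region was called in callus alone: this region of 2281 bp stood at the 96.3 percentile, inside an H3K4me3 region of 2865 bp called in both tissues. The authors' deposited table gave PLT3 6.04-fold (3.39 to 11.7) for H3ac and 2.61-fold (2.04 to 3.36) for H3K4me3. PLT7, unlike the other PLT genes named here, carried both marks in leaf as well as in callus. Its H3ac region, called in both tissues, stood at the 97.2 percentile. LBD16, a lateral root founder gene, carried H3K4me3 only in callus and neither mark in leaf, and the authors' deposited table gave it 2.89-fold (2.06 to 4.12). LBD29 and ERF115 carried neither mark in either tissue. The wound factor gene WIND1 carried both marks in both tissues, at the 99.5 percentile for H3ac and 96.8 for H3K4me3. WOX5, the quiescent centre gene, was counted with both marks only through a flank, and its body carried neither. ANT carried H3K4me3 only in callus and both marks in leaf.

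Of 86 peptide hormone genes, 29 (33.7%) carried both marks in callus, against 65.1% of all genes. A further 6 (6.98%) carried H3ac only, against 1.79%, and 10 (11.6%) H3K4me3 only, against 6.09%. The remaining 41 (47.7%) carried neither, against 27.0%. RGF3 and RGF8, genes for peptides that sustain the root meristem, and the CLAVATA3-related CLE11 and CLE12 carried both marks in callus and neither in leaf. RGF1 and RGF4 of the same family carried H3K4me3 only. RGF1 had 70.4 scaled callus tags and 1.5 leaf tags in the authors' deposited table, 46.93-fold (10.6 to 663). RGF4 had 66.5 scaled callus tags and 2 leaf tags in the authors' deposited table, 33.23-fold (8.86 to 280). Their regions were short and low in rank, with 244 bp at the 2.5 percentile for RGF1 and 150 bp at the 0.8 percentile for RGF4. Some calls at the genes with both marks were as weak. The top H3ac region was 150 bp at RGF3 and 188 bp at CLE11, each at the 4.9 percentile. The top H3K4me3 region of CLE11 was 150 bp, at the 0.0 percentile.

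The H3ac-only peptide genes were EPF2, PEP7, PROPEP1, PSK2, RTFL21 and PROPEP3, of which PROPEP3 falls outside the naming rule and was added after its values were seen. EPF2, a stomatal density peptide gene, PROPEP1, a danger peptide precursor gene, and PSK2, a phytosulfokine precursor gene, carried H3ac only in leaf too. PEP7, RTFL21 and PROPEP3 carried neither mark in leaf. The receptors of such peptides had other counts than the peptides. Of 26 receptor genes, 23 (88.5%) carried both marks in callus, against 33.7% of the peptide genes and 65.1% of all genes. Of the rest, 0 carried H3ac only, 1 (ERL2) H3K4me3 only and 2 (7.69%) neither, against 27.0% of all genes with neither. In leaf 22 carried both. The lists were not matched for gene length, and its part in this difference was not tested. HSL2 stood at the 99.2 percentile for H3ac and 99.3 for H3K4me3.

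Photosynthesis genes had fewer calls of either mark in callus than in leaf. Of 57, 41 (71.9%) carried both marks in callus, 2 (3.51%) H3ac only, 5 (8.77%) H3K4me3 only and 9 (15.8%) neither. Over all genes the shares were 65.1%, 1.79%, 6.09% and 27.0%, so those with H3ac or H3K4me3 only were small counts near the level of all genes. By comparison, in leaf 48 carried both, 9 H3K4me3 only and 0 neither. CAB1 and LHCA2, light-harvesting protein genes, and the photosystem genes PSAD-2 and PSBP-2 carried H3K4me3 only in callus and both marks in leaf. RBCS1A and RBCS3B, small subunits of Rubisco, carried H3ac only in callus and both marks in leaf. The 9 with neither mark in callus were CAB2, CAB3, GAPB, LHB1B1, LHCB2.2, LHCB2.3, NPQ4, RBCS1B and RBCS2B. The light-harvesting and small subunit genes have near-identical copies, and reads may have been shared between them.

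Hormone genes stood close to all genes, of which 65.1% carried both marks, 1.79% H3ac only, 6.09% H3K4me3 only and 27.0% neither in callus. Of 104 auxin genes, 60 (57.7%) carried both marks, 1 (IAA28) H3ac only, 10 (9.62%) H3K4me3 only and 33 (31.7%) neither. The 60 include AT5G01830, listed by its symbol SAUR21 alone. In leaf 51 carried both marks and 17 H3K4me3 only, and 6 of the 60 with both marks in callus carried H3K4me3 only in leaf. Of 71 cytokinin genes, 43 (60.6%) carried both marks, 1 (LOG7) H3ac only, 6 (8.45%) H3K4me3 only and 21 neither. CKX3, which breaks cytokinin down, carried H3K4me3 only in callus and neither mark in leaf. It had 115.7 scaled callus tags and 7.5 leaf tags in the authors' deposited table, 15.42-fold (7.42 to 37.8). The response regulators ARR7 and ARR15 carried H3K4me3 only in callus, ARR15 through a flank.

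Lists of regulators of other organs differed. Of 24 leaf development genes, 19 (79.2%) carried both marks in callus, against 65.1% of all genes, 1 H3K4me3 only and 4 (16.7%) neither. Of 16 epidermis, stomata and trichome genes, 9 (56.2%) carried both marks, 2 H3K4me3 only and 5 neither. Of 25 embryo and shoot stem cell factors, 6 (24%) carried both marks in callus, 3 (12%) H3ac only, 3 (12%) H3K4me3 only and 13 (52%) neither, against 27.0% of all genes with neither. In leaf 14 of these 25 carried neither mark. WUS and STM, the shoot stem cell genes, and LEC2, an embryo regulator, carried neither mark in either tissue. CUC3, WOX1 and WOX2 carried H3ac only, through regions of 150, 150 and 165 bp at or below the 3.6 percentile. CUC2 carried H3K4me3 only in callus and neither mark in leaf, and the authors' deposited table gave it 2.65-fold (1.78 to 4.01). Of 28 floral and flowering genes, 10 (35.7%) carried both marks, 1 H3ac only, 4 (14.3%) H3K4me3 only and 13 (46.4%) neither. FLC, the repressor of flowering, carried H3K4me3 only in callus and both marks in leaf, and AG and FT carried neither mark in either tissue.

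Against 65.1% of all genes, both marks were found in callus at 30 of 31 ribosomal protein genes (96.8%), 79 of 90 housekeeping and cytoskeleton genes (87.8%), 25 of 28 jasmonate and wounding genes (89.3%) and 56 of 67 histone modifier genes (83.6%), and none of these 4 lists had a gene with H3ac only. HTR12, the centromeric histone H3 gene, was 1 of 3 histone genes of 21 with H3K4me3 only. At the other end, 98 of 126 intracellular immune receptor and defensin-like genes (77.8%) carried neither mark, against 27.0% of all genes, and 6 (4.76%) carried H3ac only, against 1.79%. This share describes mainly the defensin-like genes, since 67 of 80 LCR and 23 of 27 SCRL genes carried neither mark. The immune receptor genes RPP13, RPS4 and RRS1 were among those with both marks. The vascular list of 14 held 8 genes with both marks in callus and 4 in leaf. MP, an auxin response factor gene of vascular and root founding, carried both marks in callus and neither in leaf. The authors' deposited table gave MP 3.55-fold (1.98 to 6.83) for H3ac and 13.26-fold (7.85 to 24.1) for H3K4me3. The remaining lists are shown in the plot of marks by list.

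**Figure D5:**
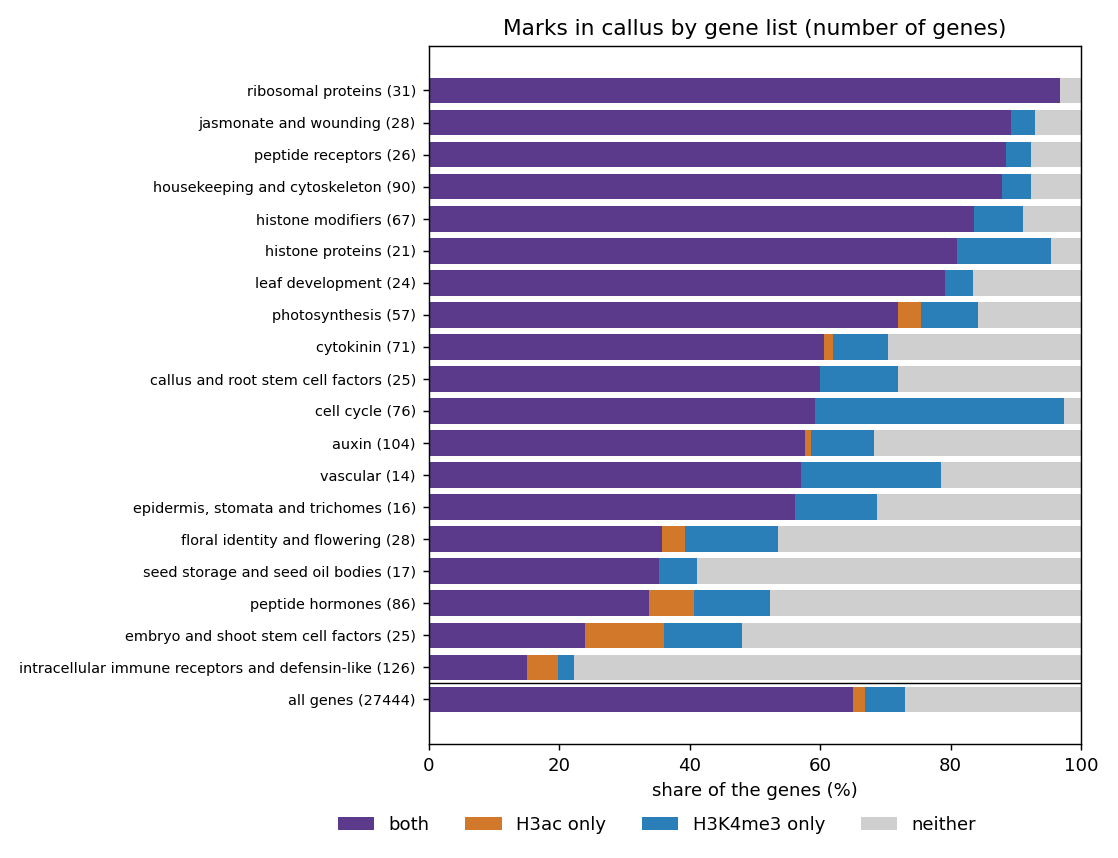
Share of genes in percent (x axis) with both marks, H3ac only, H3K4me3 only or neither in callus for each gene list, ordered by the share with both marks and with the number of genes in brackets. All 27444 genes form the lowest bar. The cell cycle list has the widest H3K4me3-only segment, 38.2%, and the immune receptor and defensin-like list the widest segment with neither mark, 77.8%.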

How the data were processed

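Each tissue and mark is 1 library of immunoprecipitated DNA, grouped by the sample titles. The TAIR10 build and the tools HOMER 4.10.4, Bowtie2 2.3.4.3 and SAMtools 1.11 are listed without roles, per the submitters' processing notes. For region calls the settings were not given in the sources used here, and no input library enters the tables. Callus and leaf regions of a mark were merged by the authors with HOMER mergePeaks, per the file headers, and carry a deposited score without a stated unit. A score of a region called in both tissues holds leaf too. The authors' HOMER tables of regions higher in callus give, per the file headers, the tag signal in 147 bp at the region centre and its ratio, the fold of callus over leaf. In these deposited tables callus tags are scaled to leaf by depth ratios of 1.369 (H3ac) and 1.016 (H3K4me3).

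Regions were overlapped with each other by at least 1 bp, and with gene bodies plus 500 bp of 27444 nuclear protein-coding genes (RefSeq TAIR10.1 table, without strand, so starts are unknown) in Python 3.11.15, pandas 2.3.3 and scipy 1.17.1. H3K4me3 centres lay in a gene in 93.9% unshifted and in at most 76.9% when shifted by 500 bp or more. Intervals are exact conditional 95% intervals with a tag taken as 1 read, and cover counting error only. The overlap and interval code was tested on simulated data.

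Members, gene lists and the naming rule were chosen with earlier results of these data known. List genes that only share a symbol were dropped (29). The rule named, per single-mark class, the 10 genes with symbol and highest score over the body and the 6 with the largest fold. It also named the 8 top genes with both marks, up to 5 (single mark) or 4 (both) per list and class, 25 fixed genes, and the 5 top lone regions per mark. Further list members were named after their values were seen. Organelle regions were set apart.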

Additional observations from a re-analysis of the deposited data

Results flagged for a closer look

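Organelle DNA was recovered besides the nuclear regions. The callus H3ac library had 77 regions called on the mitochondrial genome, and the leaf H3ac library had 0 there. Neither H3K4me3 library had a mitochondrial region. On the plastid genome 2 H3ac regions were called in callus and 2 in leaf, and 9 H3K4me3 regions were called in callus against 80 in leaf. Organelles have no histones of this kind, so these regions lie outside the comparison of marks. Their part in the nuclear counts was not tested.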

How the results depend on the processing

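Of 32 alternative values for the class counts and overlap shares, 19 stayed within 1.5 times the count or within the counting interval of the share, and 13 moved. With only the regions at or above the median score of each mark, 9412 genes had both marks, 2514 H3ac only and 13085 neither, and the overlapped shares were 74.3% for H3ac and 77.7% for H3K4me3. H3ac only then outnumbered H3K4me3 only, at 2433 genes. With only regions called in callus alone, whose ends leaf did not widen, 563 genes had both marks, 1799 H3ac only, 954 H3K4me3 only and 24128 neither, and the shares were 16.0% and 32.5%. These settings hold fewer regions by construction. With the region centre in place of the whole region the shares were 85.0% and 83.2%. Of 48 list counts, 37 stayed within 1.5 times and 11 moved. The 29 cell cycle genes with H3K4me3 only became 37 with the gene body alone, 20 with 1000 bp flanks, 12 at the median score and 10 in callus alone. The 5 photosynthesis genes with H3K4me3 only became 9 with the body alone and 24 at the median score, where its share passed that of the cell cycle list. No paired analysis was possible because each group has 1 library. The promoter motif shares and their alternative window were not run, since no promoter sequence was used here. Counts rest on calls, so a gene without a call may carry the mark below the depth of the library, and H3ac and H3K4me3 levels were not compared.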

Other observations

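Genes that carried H3K4me3 only in leaf and both marks in callus numbered 521. Among the 12 with a symbol and the highest H3ac scores were WAG2, a protein kinase gene, SUS1, a sucrose synthase gene, and AHL20, an AT-hook gene. For H3ac the authors' deposited table gave WAG2 4.56-fold, SUS1 3.65-fold and AHL20 5.76-fold. Genes that carried H3ac only in leaf and both marks in callus were fewer, at 85. They included LRX2, a cell wall extensin gene, with 6.5-fold for H3K4me3 in the authors' deposited table, and MYB112, with 42.62-fold for H3K4me3 in the authors' deposited table. H3K4me3-only genes without a mark in leaf included TPX2, a spindle assembly gene, with 4.97-fold in the authors' deposited table, and MNP, a GATA factor gene of the embryo, with 5.65-fold in the authors' deposited table. H3ac-only genes without a mark in leaf included WRKY38, a defence repressor gene, with 3.98-fold in the authors' deposited table.

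Symbols that share a stem of letters, with 10 or more genes each, gave 173 groups, ranked after their values were seen. All 19 ATG genes of autophagy, all 19 PEX genes of peroxisomes, all 18 EIF translation factor genes and all 15 NRPB genes of RNA polymerase II carried both marks in callus, against 65.1% of all genes. The groups with the highest shares of H3K4me3 only were OTP with 4 of 10 genes, CYCD with 3 of 10, CDC with 4 of 14 (28.6%) and CRR with 3 of 11 (27.3%), against 6.09% of all genes. Many OTP and CRR genes encode organelle RNA editing proteins. The highest shares of H3ac only were WOX with 2 of 11 (18.2%) and MES with 3 of 18 (16.7%), against 1.79% of all genes. The WOX genes were WOX1 and WOX2, with regions of 150 and 165 bp at or below the 3.6 percentile. All 10 MLP genes carried neither mark. A stem is a rough grouping that can join unrelated genes.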
